A study of Mus musculus with 12 samples.

Results

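Mitochondria import nearly all of their proteins, and the genes described here encode the machines that do this and that then cut, fold or degrade what arrives. They were taken by symbol as every gene whose symbol begins with Tomm or Timm, together with Samm50, Mtx1, Mtx2, Mtx3, Pam16, Dnajc19, Grpel1, Grpel2, Hspa9, Hspd1, Hspe1, Trap1, Lonp1, Clpp, Clpx, Afg3l2, Spg7, Htra2, Pmpca and Pmpcb, and symbols of pseudogenes were left out. The choice gave 46 of the 46477 symbols in the count table, and all 46 passed the filter on low counts together with 17369 genes in all.

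RNA came from MTCH2-/- ESCs, MTCH2 F/F ESCs, MTCH2-/- EpiLCs and MTCH2 F/F EpiLCs of C57BL/6 background (C57BL/6J mice in the study's methods), with 3 libraries in each of the 4 groups, numbered FF1 to FF3 in the labels, which do not say what the number stands for. All 12 libraries carried floxed alleles of Mtch2, whose protein sits in the outer membrane and is related to the mitochondrial carriers. In the MTCH2-/- groups the alleles had been removed by adding recombinant Cre protein to the culture, while the MTCH2 F/F cells were left untreated and are labelled wild type, so exposure to Cre and loss of MTCH2 cannot be told apart. ESCs were kept in 2i/L, a medium with LIF and inhibitors of MEK and GSK3 that holds cells in the naïve state. EpiLCs, a model of the epiblast before gastrulation, were made by 2 days of priming with Activin A and FGF2 (A/F). The labels call the source epiblast tissue at E3.5, but these were cultured lines, and ESCs were kept on irradiated fibroblast feeders before they were seeded without them.

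As background, precursor proteins enter through the TOM complex of the outer membrane. From there the SAM complex inserts barrel proteins into that membrane, small TIM chaperones carry hydrophobic precursors to the TIM22 channel, and precursors with a presequence pass through the TIM23 channel, pulled by a motor built around the matrix chaperone mortalin (Hspa9). In the matrix the presequence is cut off, chaperonins fold the protein, and ATP-dependent proteases remove what fails to fold. In mammalian cells, Lonp1, Hspd1 and the Clp protease are widely used as readouts of a stress response to unfolded proteins in mitochondria.

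Libraries held 17453328 to 24068523 counts, which sets the precision of each level. Levels are CPM, counts scaled to the library size with TMM factors, and each adjusted p comes from a quasi-likelihood test in edgeR, corrected by Benjamini-Hochberg over the 17369 genes. Mtch2 was measured at 2.19, 1.58 and 1.82 CPM in MTCH2-/- ESCs, against 175, 183 and 172 CPM in MTCH2 F/F ESCs. In EpiLCs it was measured at 2.18, 1.52 and 1.93 CPM in MTCH2-/- EpiLCs, against 122, 122 and 123 CPM in MTCH2 F/F EpiLCs, so the targeted gene matched the labels in all 12 libraries. Summed over the 7 naïve markers, levels were 4104 to 4623 CPM in MTCH2-/- ESCs, against 5037 to 5474 CPM in MTCH2 F/F ESCs. Taken singly, only Prdm14 was lower there (−0.58, adjusted p = 6.33e-04), and the other 6 did not pass. Among those 6 was Tfcp2l1, which had the widest gap in mean level (−0.40, adjusted p = 0.0979). By its own qPCR, the study judged naïve markers normal before priming. In EpiLCs the naïve sum was 2117 to 2186 CPM in MTCH2-/- cells, against 319 to 587 CPM in MTCH2 F/F EpiLCs, and all 7 markers were higher in MTCH2-/- EpiLCs. The 5 formative markers summed to 403 to 526 CPM in MTCH2-/- EpiLCs, against 1862 to 2340 CPM in MTCH2 F/F EpiLCs. MTCH2-/- EpiLCs thus differed from MTCH2 F/F EpiLCs in cell state as well as in genotype, and the part of that state in the member differences was not tested.

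Markers of other cell types also moved with genotype, at low levels. Their counts stand beside 23.3% higher and 20.4% lower of all genes in ESCs and 32.3% and 30.2% in EpiLCs. Of the 7 fibroblast feeder markers tested of 8, 6 were higher in MTCH2-/- ESCs, with a sum of 20.3 to 34.8 CPM, against 14.6 to 16.99 CPM in MTCH2 F/F ESCs. In EpiLCs 4 were higher and 2 lower, and the sums overlapped (23.3 to 33.8 CPM in MTCH2-/- EpiLCs, against 29.1 to 30.9 CPM in MTCH2 F/F EpiLCs). Lum, a defining fibroblast marker, was below the filter and at 0 in 2 libraries. The 6 primitive endoderm markers summed to 51.7 to 62.6 CPM in MTCH2-/- ESCs, against 22.4 to 24.2 CPM in MTCH2 F/F ESCs, and to 106 to 131 CPM in MTCH2-/- EpiLCs, against 62.6 to 68.8 CPM in MTCH2 F/F EpiLCs. In ESCs 4 of them were higher and 1 lower, and in EpiLCs 5 and 1. Col4a1 carried most of that sum, with a mean of 37.7 CPM in MTCH2-/- ESCs, against 9.55 CPM in MTCH2 F/F ESCs. The factors Gata4, Gata6 and Sox7 were also higher in MTCH2-/- cells of both media. Their log2 fold changes were 0.93, 1.28 and 1.26 in ESCs and 1.40, 1.40 and 3.97 in EpiLCs. Sox17 was higher in EpiLCs (1.32, adjusted p = 0.00184) and did not pass in ESCs, while Dab2 was lower in both media (−0.48, adjusted p = 0.0224 in ESCs). The 5 trophoblast markers summed to 92.01 to 108 CPM in MTCH2-/- ESCs, against 34.4 to 39.8 CPM in MTCH2 F/F ESCs, with 3 higher and 1 lower. Their EpiLC sums overlapped (37.9 to 48.6 CPM in MTCH2-/- EpiLCs, against 40.7 to 51.6 CPM in MTCH2 F/F EpiLCs), but 3 markers were higher and 1 lower there. Gata3 (2.49, adjusted p = 2.24e-05), Eomes (1.43, 1.91e-07) and Krt8 (0.93, 0.00153) were higher in MTCH2-/- EpiLCs, and Krt18 was lower (−1.12, 2.38e-06). Krt8 and Krt18 made up most of the ESC difference, with means of 47.6 and 31.3 CPM in MTCH2-/- ESCs, against 9.77 and 7.50 CPM in MTCH2 F/F ESCs. Cdx2, a defining marker, was lower in MTCH2-/- ESCs (−1.37, adjusted p = 0.00404), and Gata3 did not pass there. The part of these cells in the member differences was not tested, and in bulk RNA fewer cells of a type and less RNA per cell cannot be told apart.

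Loss of MTCH2 came with lower transcripts of many parts of the entry route and of a few matrix chaperones, and with higher transcripts of the motor chaperone Hspa9, its membrane anchor Timm44 and the matrix protease components Lonp1 and Clpx. Between MTCH2-/- and MTCH2 F/F ESCs, 5 members were higher and 16 lower at an adjusted p under 0.05, beside 23.3% and 20.4% of all genes tested. Between EpiLCs, 5 members were higher and 26 lower, beside 32.3% and 30.2% of all genes. The number higher in ESCs was 3 without MTCH2 F/F ESC library 1 or without library 2, and the number higher in EpiLCs was 3 without MTCH2 F/F EpiLC library 1. The libraries of the genotypes did not overlap for 5 higher and 23 lower members in ESCs, beside 28% and 26.7% of all genes, and for 6 higher and 26 lower members in EpiLCs, beside 34.4% and 32.6%.

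These were changes of small size. The median log2 fold change over the 46 members was −0.14 in ESCs, against 0.01 over all genes, and −0.28 in EpiLCs, against 0.02 over all genes. Taken without sign, the median was 0.21 in ESCs (all genes 0.29) and 0.33 in EpiLCs (all genes 0.45). In ESCs the member differences all stayed under 2-fold, where 11% of all genes passed both the adjusted p and a 2-fold minimum, and in EpiLCs 3 members passed both, beside 21% of all genes. Those 3 were Timm21, Tomm40l and Timm8a2. Hspa9, Lonp1, Clpx and Timm44 were higher in both media, which was 80% of the members called higher in each. All 16 members lower in ESCs were also lower in EpiLCs, where they made up 61.5% of the lower members.

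**Figure D1:**
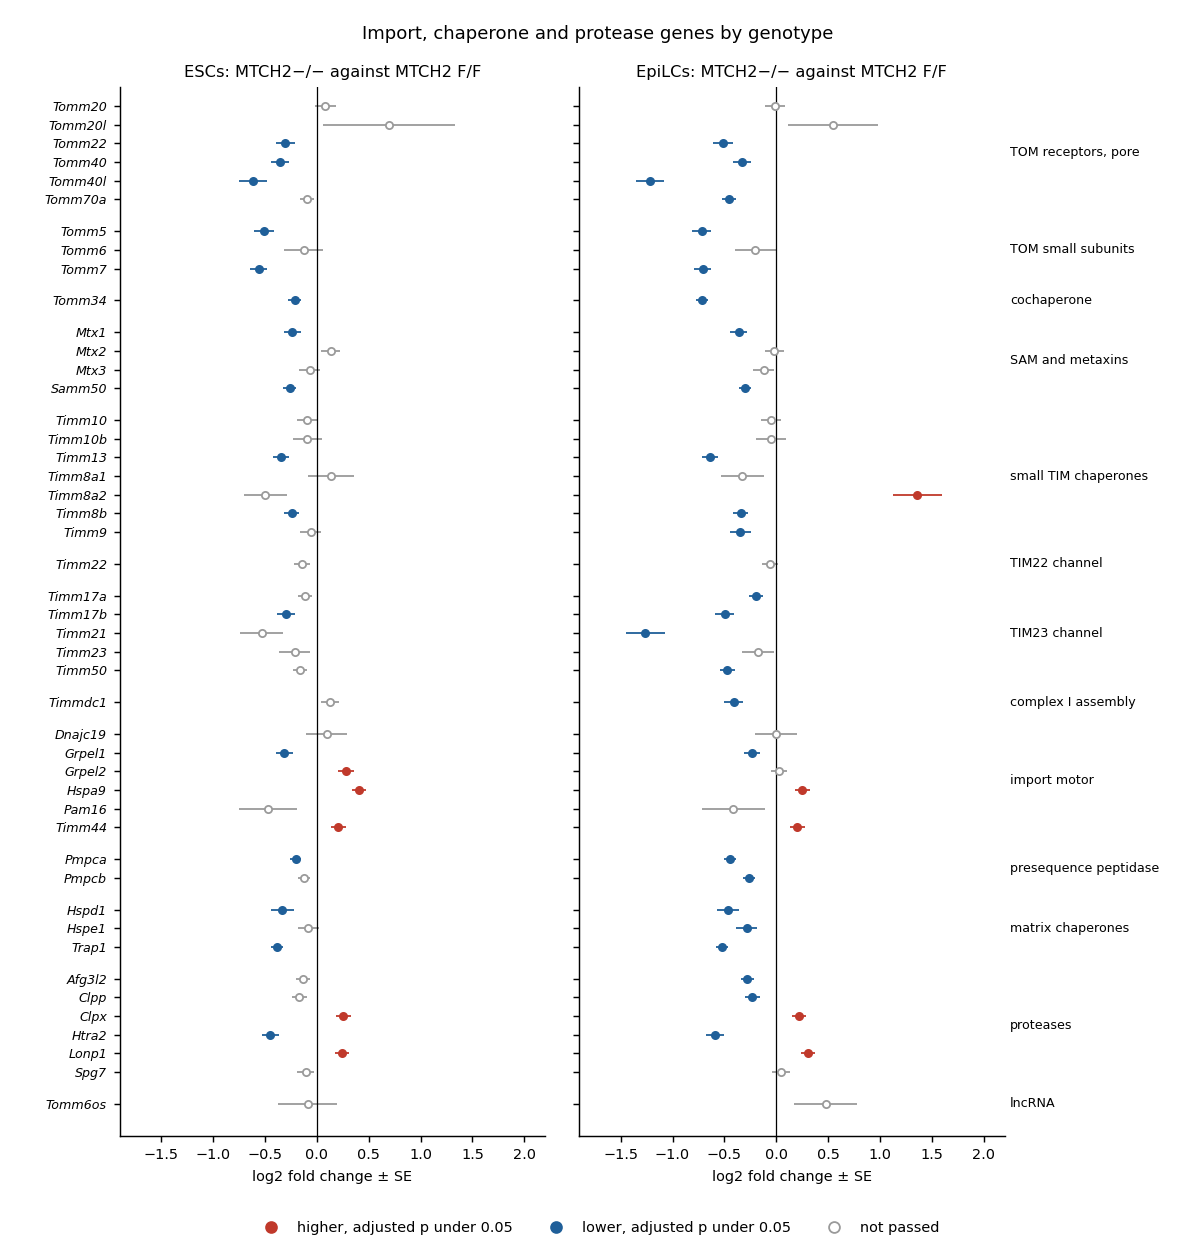
Each point is the log2 fold change of 1 member between MTCH2-/- and MTCH2 F/F cells with its SE, in ESCs (left) and EpiLCs (right), grouped by role. Red points are higher, blue points lower and open points did not pass an adjusted p of 0.05; most TOM, SAM, TIM23 and matrix chaperone members lie left of 0, while Hspa9, Timm44, Clpx and Lonp1 lie right of it in both panels.

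At the outer membrane, the pore and the small subunits Tomm5 and Tomm7 of TOM were lower in MTCH2-/- cells of both media. Tomm40, the pore itself, was measured at 144, 169.7 and 156 CPM in MTCH2-/- ESCs, against 189, 209 and 201 CPM in MTCH2 F/F ESCs. Tomm40 had 144, 187 and 166 CPM in MTCH2-/- EpiLCs, against 206, 215 and 205 CPM in MTCH2 F/F EpiLCs. The genotypes did not overlap in either medium, with log2 differences of −0.35 (SE 0.08, adjusted p = 0.00308) in ESCs and −0.33 (SE 0.08, adjusted p = 0.00291) in EpiLCs. Tomm22, the central receptor, changed, with log2 fold changes of −0.30 (adjusted p = 0.0156) in ESCs and −0.52 (adjusted p = 1.83e-04) in EpiLCs. Tomm40l, a paralog of the pore gene, was measured at 5.51, 4.98 and 6.00 CPM in MTCH2-/- ESCs, against 7.59, 8.93 and 8.62 CPM in MTCH2 F/F ESCs. In EpiLCs its values were 4.50, 4.83 and 5.79 CPM in MTCH2-/- EpiLCs, against 10.9, 12.8 and 11.5 CPM in MTCH2 F/F EpiLCs. It fell the most of the members in ESCs that passed the test, with a log2 fold change of −0.61 (SE 0.14, adjusted p = 0.00185), and it fell with a log2 fold change of −1.22 (SE 0.13, adjusted p = 1.32e-06) in EpiLCs, but 64.3% of its exon bases lie under the overlapping gene Nr1i3, so its reads cannot be fully assigned.

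Tomm7 and Tomm5, small proteins that stabilise the TOM complex, had some of the clearest decreases. Tomm7 was measured at 47.97, 57.97 and 55.4 CPM in MTCH2-/- ESCs, against 84.4, 77.96 and 75.2 CPM in MTCH2 F/F ESCs. For Tomm7, EpiLC libraries gave 48.2, 56.7 and 53.9 CPM in MTCH2-/- EpiLCs, against 88.8, 87.8 and 82.6 CPM in MTCH2 F/F EpiLCs. All 6 MTCH2-/- libraries lay below all 6 MTCH2 F/F libraries, with log2 differences of −0.56 (SE 0.08, adjusted p = 5.28e-05) in ESCs and −0.71 (SE 0.08, adjusted p = 1.86e-06) in EpiLCs. Tomm5 was measured at 16.2, 16.3 and 15.96 CPM in MTCH2-/- ESCs, against 24.6, 23.1 and 21.4 CPM in MTCH2 F/F ESCs. Tomm5 had 21.6, 22.9 and 20.5 CPM in MTCH2-/- EpiLCs, against 37.2, 38.98 and 30.7 CPM in MTCH2 F/F EpiLCs. Its levels were thus lower in MTCH2-/- cells within each medium, with log2 differences of −0.51 (SE 0.10, adjusted p = 5.31e-04) in ESCs and −0.72 (SE 0.09, adjusted p = 7.54e-06) in EpiLCs. Tomm6, the third small subunit, had 1.90 to 2.37 CPM in MTCH2-/- ESCs, against 2.23 to 2.44 CPM in MTCH2 F/F ESCs, with overlapping groups, and 84.2% of its exon bases lie under other genes, among them the noncoding Tomm6os, which did not pass either genotype test. Summed, the 3 small subunits reached 66.04 to 76.7 CPM in MTCH2-/- ESCs, against 99.01 to 111 CPM in MTCH2 F/F ESCs, and 71.7 to 81.1 CPM in MTCH2-/- EpiLCs, against 115 to 129 CPM in MTCH2 F/F EpiLCs.

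The receptors did not move together. Tomm20, the presequence receptor whose protein served the study as a mitochondrial stain, was measured at 144, 124 and 109.6 CPM in MTCH2-/- ESCs, against 118, 124 and 114 CPM in MTCH2 F/F ESCs. The EpiLC libraries had 158, 146 and 123 CPM in MTCH2-/- EpiLCs, against 136, 156 and 138 CPM in MTCH2 F/F EpiLCs. The groups overlapped in both media, with log2 differences of 0.08 (SE 0.10, adjusted p = 0.524) in ESCs and −0.01 (SE 0.10, adjusted p = 0.913) in EpiLCs. These levels are RNA. By Western blot the study found less TOM20 protein in MTCH2-/- naïve ESCs, which in its words may reflect a loss of mitochondrial mass. Tomm70a, the receptor for carrier-like precursors, also overlapped in ESCs at 231 to 270.5 CPM in MTCH2-/- ESCs, against 265 to 281 CPM in MTCH2 F/F ESCs. In EpiLCs it was apart, at 294, 337 and 333 CPM in MTCH2-/- EpiLCs, against 431, 449 and 445 CPM in MTCH2 F/F EpiLCs, and fell with a log2 fold change of −0.46 (SE 0.07, adjusted p = 2.99e-05). Tomm34, a cytosolic cochaperone that binds Hsp70 and Hsp90, fell with log2 fold changes of −0.21 (adjusted p = 0.0112) in ESCs and −0.72 (adjusted p = 9.39e-08) in EpiLCs, where it was measured at 68.1, 73.5 and 66.3 CPM in MTCH2-/- EpiLCs, against 109, 115 and 117 CPM in MTCH2 F/F EpiLCs. Without MTCH2-/- ESC library 3, its ESC difference had an adjusted p of 0.0526. Tomm20l, a paralog of Tomm20, was under 1 CPM in every library and passed neither genotype test.

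In the SAM complex the central subunit fell and the metaxins were mixed. Samm50, which inserts barrel proteins into the outer membrane, was measured at 139, 144 and 140.0 CPM in MTCH2-/- ESCs, against 177, 164 and 168 CPM in MTCH2 F/F ESCs. Samm50 had 205, 236 and 217 CPM in MTCH2-/- EpiLCs, against 272, 268 and 270.2 CPM in MTCH2 F/F EpiLCs. It was lower in every MTCH2-/- library of each medium, with log2 differences of −0.26 (SE 0.06, adjusted p = 0.00228) in ESCs and −0.30 (SE 0.06, adjusted p = 4.08e-04) in EpiLCs. Mtx1 fell with log2 fold changes of −0.24 (adjusted p = 0.0313) in ESCs and −0.36 (adjusted p = 0.00139) in EpiLCs, although 30.1% of its exon bases overlap other genes, while Mtx2 (0.13 in ESCs and −0.02 in EpiLCs) and Mtx3 (−0.07 in ESCs and −0.12 in EpiLCs) did not pass in either medium. Scaled by library totals alone, Mtx1 in ESCs had an adjusted p of 0.0755.

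Among the 7 small TIM chaperones, 2 were lower in MTCH2-/- ESCs, beside 20.4% of all genes tested. In MTCH2-/- EpiLCs 3 were lower and 1 higher, beside 30.2% and 32.3%. Timm13 was measured at 48.1, 57.7 and 50.8 CPM in MTCH2-/- ESCs, against 65.1, 69.9 and 63.6 CPM in MTCH2 F/F ESCs. For Timm13, EpiLC libraries gave 48.6, 57.5 and 54.4 CPM in MTCH2-/- EpiLCs, against 85.7, 84.03 and 79.7 CPM in MTCH2 F/F EpiLCs. The genotypes did not overlap, and Timm13 fell with log2 differences of −0.34 (SE 0.08, adjusted p = 0.0026) in ESCs and −0.64 (SE 0.08, adjusted p = 4.65e-06) in EpiLCs. Timm8b, another intermembrane space chaperone, fell with log2 fold changes of −0.24 (adjusted p = 0.0151) in ESCs and −0.34 (adjusted p = 9.70e-04) in EpiLCs, and without MTCH2-/- ESC library 1 its ESC difference had an adjusted p of 0.0781. Timm9 was lower in EpiLCs, with a log2 fold change of −0.35 (adjusted p = 0.00776), and did not pass in ESCs, but its interaction did not pass either (adjusted p = 0.137), while its partner Timm10 did not pass in either medium (−0.09 in ESCs and −0.05 in EpiLCs). Timm8a2 was the exception in direction. It was measured at 2.05, 2.36 and 1.69 CPM in MTCH2-/- EpiLCs, against 0.928, 0.630 and 0.821 CPM in MTCH2 F/F EpiLCs, and was higher in MTCH2-/- EpiLCs with a log2 fold change of 1.36 (SE 0.24, adjusted p = 1.26e-04), whereas in ESCs its difference was −0.50 (SE 0.21, adjusted p = 0.0638), with an adjusted p of 0.0429 when the replicate number was a block. Timm8a1 and Timm10b did not pass in either medium.

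The inner membrane channels differed from each other. Timm22, the channel for carrier proteins, did not pass in ESCs (−0.14, adjusted p = 0.129) or in EpiLCs (−0.06, adjusted p = 0.503). Of the 5 TIM23 channel genes, 1 was lower in ESCs and 4 were lower in EpiLCs, beside 20.4% and 30.2% of all genes tested. The interaction of genotype and priming passed for Timm50 alone of them (adjusted p = 0.0224). Timm21, which links TIM23 to the TOM complex, was measured at 4.34, 5.07 and 8.04 CPM in MTCH2-/- ESCs, against 7.29, 9.07 and 8.52 CPM in MTCH2 F/F ESCs. Timm21 had 9.27, 11.8 and 10.4 CPM in MTCH2-/- EpiLCs, against 26.9, 28.7 and 19.7 CPM in MTCH2 F/F EpiLCs. The EpiLC groups were far apart, with a log2 fold change of −1.26 (SE 0.19, adjusted p = 3.54e-05). In ESCs the groups overlapped through the highest MTCH2-/- library, with −0.53 (SE 0.21, adjusted p = 0.0502) and an adjusted p of 0.048 under the replicate block. Timm17b, a channel subunit, fell with log2 fold changes of −0.29 (adjusted p = 0.0125) in ESCs and −0.50 (adjusted p = 1.35e-04) in EpiLCs, and its paralog Timm17a fell in EpiLCs, with a log2 fold change of −0.20 (adjusted p = 0.0236), a call that was lost when libraries were scaled by their totals alone (adjusted p = 0.111). Timm50, the presequence receptor of the channel, fell in EpiLCs, with a log2 fold change of −0.47 (adjusted p = 2.49e-05), and its ESC difference of −0.16 (adjusted p = 0.0736) had an adjusted p of 0.0422 under the block. Timm23 itself did not pass (−0.21 in ESCs and −0.18 in EpiLCs), and 44.7% of its 60-base windows were unique in the transcriptome.

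In ESCs the import motor was the role group with the most members higher (3 of 6), beside 23.3% of all genes tested. In EpiLCs it had 2, as had the quality control proteases, beside 32.3%. Hspa9, the matrix chaperone that pulls precursors in, was measured at 1119, 1285 and 1235 CPM in MTCH2-/- ESCs, against 926, 900.5 and 919 CPM in MTCH2 F/F ESCs. In EpiLCs it was measured at 1279, 1503 and 1414 CPM in MTCH2-/- EpiLCs, against 1127, 1162 and 1237 CPM in MTCH2 F/F EpiLCs. Every MTCH2-/- library lay above every MTCH2 F/F library of its medium, and Hspa9 rose with log2 differences of 0.41 (SE 0.07, adjusted p = 2.32e-04) in ESCs and 0.25 (SE 0.07, adjusted p = 0.00509) in EpiLCs. Timm44, which anchors Hspa9 at the channel, was measured at 114, 119 and 105 CPM in MTCH2-/- ESCs, against 94.96, 105 and 93.7 CPM in MTCH2 F/F ESCs. Timm44 had 101, 114 and 95.4 CPM in MTCH2-/- EpiLCs, against 86.1, 92.2 and 91.4 CPM in MTCH2 F/F EpiLCs. These groups did not overlap, but the differences were close to the threshold, at 0.21 (SE 0.07, adjusted p = 0.0335) in ESCs and 0.20 (SE 0.07, adjusted p = 0.027) in EpiLCs.

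The Timm44 call depended on single libraries. In ESCs it was lost without MTCH2-/- ESC library 1 or 2, without MTCH2 F/F ESC library 1 or 3 or without any MTCH2 F/F EpiLC library, with adjusted p values of 0.0692 to 0.181. In EpiLCs it was lost without MTCH2-/- EpiLC library 2 or any MTCH2 F/F EpiLC library, at 0.0586 to 0.154. DESeq2 gave 0.069 for Timm44 in ESCs, and size factors of the DESeq2 kind in edgeR gave 0.0551.

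The 2 nucleotide exchange factors of Hspa9 went opposite ways in ESCs. Grpel1 was measured at 72.4, 87.3 and 87.5 CPM in MTCH2-/- ESCs, against 97.2, 108 and 101 CPM in MTCH2 F/F ESCs, and Grpel2 was measured at 49.6, 43.6 and 50.7 CPM in MTCH2-/- ESCs, against 38.9, 38.8 and 40.7 CPM in MTCH2 F/F ESCs. Grpel1 was lower in MTCH2-/- ESCs with a log2 fold change of −0.31 (SE 0.08, adjusted p = 0.00455) and Grpel2 was higher with a log2 fold change of 0.28 (SE 0.08, adjusted p = 0.00655), each without overlap between the genotypes. In EpiLCs Grpel1 was again lower, with a log2 fold change of −0.24 (adjusted p = 0.0161), while Grpel2 overlapped (0.02, adjusted p = 0.8). Scaled by library totals alone, Grpel1 in EpiLCs had an adjusted p of 0.0502. Dnajc19 and Pam16, the J-domain and J-like regulators of the motor, did not pass in either medium, with 0.891 to 1.54 CPM in MTCH2-/- ESCs, against 1.37 to 2.33 CPM in MTCH2 F/F ESCs for Pam16. Summed over the 6 motor genes, of which Hspa9 makes up most, levels were 1361 to 1543 CPM in MTCH2-/- ESCs, against 1159 to 1164 CPM in MTCH2 F/F ESCs, and 1514 to 1759 CPM in MTCH2-/- EpiLCs, against 1357 to 1478 CPM in MTCH2 F/F EpiLCs.

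Both subunits of the peptidase that removes presequences were lower in EpiLCs. Pmpca was measured at 128, 141 and 138 CPM in MTCH2-/- ESCs, against 155, 155 and 158 CPM in MTCH2 F/F ESCs. For Pmpca, EpiLC libraries gave 131, 140.3 and 139.8 CPM in MTCH2-/- EpiLCs, against 189, 186 and 185 CPM in MTCH2 F/F EpiLCs. It was lower in every MTCH2-/- library of each medium, with log2 differences of −0.20 (SE 0.06, adjusted p = 0.00754) in ESCs and −0.44 (SE 0.06, adjusted p = 4.44e-06) in EpiLCs, and 20.4% of its exon bases overlap Inpp5e. Pmpcb, its catalytic partner, fell in EpiLCs, with a log2 fold change of −0.27 (adjusted p = 8.40e-04), and its ESC difference was −0.12 (adjusted p = 0.107).

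The folding chaperones of the matrix went the other way from Hspa9. Trap1, the mitochondrial Hsp90, was measured at 188, 204 and 186 CPM in MTCH2-/- ESCs, against 254, 249 and 249 CPM in MTCH2 F/F ESCs. Trap1 had 223, 234 and 216 CPM in MTCH2-/- EpiLCs, against 312, 326 and 331 CPM in MTCH2 F/F EpiLCs. The genotypes did not overlap, and Trap1 fell with log2 differences of −0.38 (SE 0.06, adjusted p = 6.69e-05) in ESCs and −0.53 (SE 0.06, adjusted p = 1.01e-06) in EpiLCs, which is 76.7% of the mean MTCH2 F/F level in ESCs and 69.5% in EpiLCs. Hspd1, the chaperonin known as Hsp60, was measured at 225, 269.9 and 267 CPM in MTCH2-/- ESCs, against 337, 324 and 297 CPM in MTCH2 F/F ESCs. Its EpiLC levels were 241, 338 and 306 CPM in MTCH2-/- EpiLCs, against 419, 427 and 375 CPM in MTCH2 F/F EpiLCs. It too was lower in every MTCH2-/- library of each medium, with log2 differences of −0.33 (SE 0.11, adjusted p = 0.0214) in ESCs and −0.47 (SE 0.11, adjusted p = 0.00157) in EpiLCs. Its lid, Hspe1, fell in EpiLCs, with a log2 fold change of −0.28 (adjusted p = 0.0232) and did not pass in ESCs (−0.08, adjusted p = 0.542), and scaled by library totals alone its EpiLC difference had an adjusted p of 0.0508.

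The quality control proteases were divided. Lonp1, the main protease for misfolded matrix proteins, was measured at 266, 278 and 293 CPM in MTCH2-/- ESCs, against 226, 235 and 245 CPM in MTCH2 F/F ESCs. Lonp1 had 284, 316 and 341 CPM in MTCH2-/- EpiLCs, against 251, 240.4 and 269.9 CPM in MTCH2 F/F EpiLCs. It was higher in every MTCH2-/- library of each medium, with log2 differences of 0.24 (SE 0.07, adjusted p = 0.0113) in ESCs and 0.31 (SE 0.07, adjusted p = 0.00151) in EpiLCs. The ESC call was lost without MTCH2-/- ESC library 3 or MTCH2 F/F ESC library 1 or 2, with adjusted p values of 0.0537 to 0.0962. Clpx, which unfolds substrates for the peptidase Clpp, was measured at 52.95, 58.9 and 63.3 CPM in MTCH2-/- ESCs, against 50.3, 48.1 and 48.00 CPM in MTCH2 F/F ESCs. For Clpx, EpiLC libraries gave 60.8, 61.9 and 60.6 CPM in MTCH2-/- EpiLCs, against 50.2, 54.5 and 52.9 CPM in MTCH2 F/F EpiLCs. Clpx was higher without overlap, with log2 differences of 0.26 (SE 0.07, adjusted p = 0.00736) in ESCs and 0.22 (SE 0.07, adjusted p = 0.0126) in EpiLCs. Leaving out MTCH2 F/F ESC library 2 gave 0.0525 in ESCs, leaving out MTCH2 F/F EpiLC library 1 gave 0.0848 in EpiLCs, and without a filter on low counts the EpiLC value was 0.0504.

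Clpp, the peptidase that Clpx feeds, went the other way. It fell in EpiLCs, with a log2 fold change of −0.23 (adjusted p = 0.00938), and its ESC difference of −0.17 (adjusted p = 0.0629) had an adjusted p of 0.0172 under the replicate block. Htra2, a serine protease of the intermembrane space, was measured at 24.4, 27.6 and 25.8 CPM in MTCH2-/- ESCs, against 36.8, 36.1 and 33.3 CPM in MTCH2 F/F ESCs. Htra2 had 18.4, 21.7 and 20.3 CPM in MTCH2-/- EpiLCs, against 31.99, 29.5 and 29.4 CPM in MTCH2 F/F EpiLCs. All 6 MTCH2-/- libraries lay below all 6 MTCH2 F/F libraries, and Htra2 fell with log2 differences of −0.45 (SE 0.08, adjusted p = 4.89e-04) in ESCs and −0.59 (SE 0.09, adjusted p = 2.10e-05) in EpiLCs, with the limit that 43.7% of its exon bases overlap Aup1 and Loxl3. Of the 2 subunits of the inner membrane m-AAA protease, Afg3l2 fell in EpiLCs (−0.28, adjusted p = 0.00156) and not past the test in ESCs (−0.13, adjusted p = 0.116), and Spg7 passed in neither (−0.11 in ESCs and 0.04 in EpiLCs). Timmdc1, which shares the Timm prefix but assembles complex I, fell in EpiLCs, with a log2 fold change of −0.41 (adjusted p = 8.27e-04) and did not pass in ESCs (0.13, adjusted p = 0.256).

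**Figure D2:**
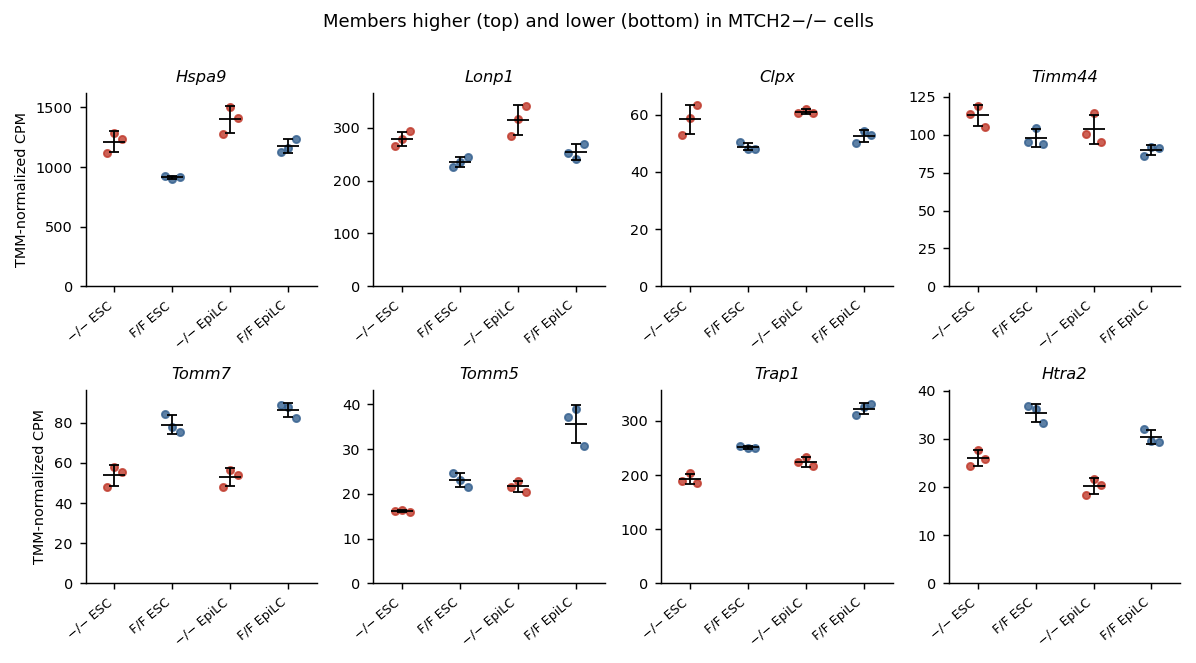
TMM-normalized CPM of 4 members higher in MTCH2-/- cells of both media (top row) and 4 lower in both (bottom row). Points are libraries, bars are the mean and SD of 3 libraries, red is MTCH2-/- and blue MTCH2 F/F; in every panel the libraries of the genotypes do not overlap within a medium, with Hspa9 at 1119 to 1285 CPM in MTCH2-/- ESCs, against 900 to 926 CPM in MTCH2 F/F ESCs.

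The 250 bases before the start site are shown for 3 members that were higher in both media (Lonp1, Clpx, Timm44) and 3 that were lower in both (Trap1, Tomm5, Samm50), as examples of each direction. The sequences are from RefSeq on GRCm38.p6, each read 5′ to 3′ on the strand of its gene, with motif matches in capitals. The windows lie at chr17:56626904-56627153, minus strand for Lonp1; chr9:65294010-65294259, plus strand for Clpx; and chr8:4275906-4276155, minus strand for Timm44. Those of the lower genes lie at chr16:4077811-4078060, minus strand for Trap1; chr4:45108114-45108363, minus strand for Tomm5; and chr15:84191990-84192239, plus strand for Samm50.
Lonp1: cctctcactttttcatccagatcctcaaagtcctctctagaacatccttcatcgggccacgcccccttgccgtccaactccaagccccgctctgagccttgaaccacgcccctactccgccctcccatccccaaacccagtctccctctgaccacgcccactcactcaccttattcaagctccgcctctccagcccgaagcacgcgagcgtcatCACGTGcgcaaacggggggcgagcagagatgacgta
Clpx: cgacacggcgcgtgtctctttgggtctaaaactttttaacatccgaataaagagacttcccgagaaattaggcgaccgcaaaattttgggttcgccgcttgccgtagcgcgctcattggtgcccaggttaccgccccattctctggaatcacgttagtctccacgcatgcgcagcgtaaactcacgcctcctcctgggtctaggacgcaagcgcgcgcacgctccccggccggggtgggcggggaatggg
Timm44: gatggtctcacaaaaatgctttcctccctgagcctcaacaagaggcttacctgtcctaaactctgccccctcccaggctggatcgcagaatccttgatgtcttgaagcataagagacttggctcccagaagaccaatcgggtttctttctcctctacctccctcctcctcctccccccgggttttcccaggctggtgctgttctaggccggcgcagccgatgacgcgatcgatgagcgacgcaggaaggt
Trap1: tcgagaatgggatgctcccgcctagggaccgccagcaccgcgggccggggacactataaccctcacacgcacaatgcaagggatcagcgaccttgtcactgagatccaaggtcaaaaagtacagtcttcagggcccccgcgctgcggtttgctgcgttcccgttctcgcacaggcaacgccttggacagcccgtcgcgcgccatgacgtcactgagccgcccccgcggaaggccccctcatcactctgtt
Tomm5: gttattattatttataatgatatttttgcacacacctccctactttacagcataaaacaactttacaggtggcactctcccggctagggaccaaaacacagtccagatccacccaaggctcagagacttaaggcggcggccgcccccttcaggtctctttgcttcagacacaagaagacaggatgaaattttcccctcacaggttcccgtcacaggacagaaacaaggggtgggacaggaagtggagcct
Samm50: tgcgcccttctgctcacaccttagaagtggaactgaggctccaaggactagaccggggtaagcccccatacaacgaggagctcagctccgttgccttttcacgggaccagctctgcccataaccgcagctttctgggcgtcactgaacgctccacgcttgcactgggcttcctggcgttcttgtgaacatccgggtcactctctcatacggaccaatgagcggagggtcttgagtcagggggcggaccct

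Motifs were searched on both strands of the same window for the 39 members in the promoter set used and for 27025 promoters in all. Afg3l2, Grpel2, Hspa9, Htra2, Timm21, Tomm40l and Tomm7 were not in that set and were not searched. The core of the heat shock element, TTCNNGAA, occurred in 7 members (17.9%), among them Hspe1 and Tomm22, against 7.1% of all promoters. The element TGATGNAA, bound by C/EBP and ATF factors, occurred in none of the 39 members searched, against 3.53% of all. The E-box CACGTG occurred in 7 members (17.9%), among them Hspd1 and Lonp1, against 6.05% of all. Of the 6 promoters shown, Lonp1 alone held a match, an E-box that begins 36 bases before the start. Longer motifs, a full heat shock element and a site for NRF1, were searched as well and are not reported here, and all motifs were chosen after the data were seen. A match describes the letters in the window and says nothing of whether a factor binds there.

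Priming was compared within each genotype. Between EpiLCs and ESCs, 9 members were higher and 3 lower in MTCH2-/- cells, beside 20% and 22.2% of all genes tested, so that the share of members higher was close to that of all genes. Priming of MTCH2 F/F cells left 21 higher and 4 lower, beside 31.9% and 32.1%. With a 2-fold minimum, 1 member passed in MTCH2-/- cells, beside 12% of all genes, and 3 in MTCH2 F/F cells, beside 27.3%. The median log2 fold change of the members was 0.04 in MTCH2-/- cells (all genes −0.02) and 0.16 in MTCH2 F/F cells (all genes −0.01). All 9 members higher in MTCH2-/- cells were among the 21, and all 3 lower ones among the 4. Medium, growth factors, matrix and time changed together during priming and cannot be told apart.

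Samm50 rose in both genotypes. It was measured at 205, 236 and 217 CPM in MTCH2-/- EpiLCs, against 139, 144 and 140.0 CPM in MTCH2-/- ESCs. In MTCH2 F/F cells it was measured at 272, 268 and 270.2 CPM in EpiLCs, against 177, 164 and 168 CPM in ESCs. The media did not overlap in either genotype, and the log2 fold changes were 0.64 (SE 0.06, adjusted p = 4.90e-07) for MTCH2-/- cells and 0.67 (SE 0.06, adjusted p = 6.06e-08) for MTCH2 F/F cells. Tomm5 rose with log2 differences of 0.42 (SE 0.10, adjusted p = 0.0023) for MTCH2-/- cells and 0.63 (SE 0.09, adjusted p = 2.11e-05) for MTCH2 F/F cells, and Trap1, with log2 differences of 0.22 (SE 0.06, adjusted p = 0.00523) for MTCH2-/- cells and 0.36 (SE 0.06, adjusted p = 3.26e-05) for MTCH2 F/F cells. Timm21 rose to 9.27, 11.8 and 10.4 CPM in MTCH2-/- EpiLCs, against 4.34, 5.07 and 8.04 CPM in MTCH2-/- ESCs, with a log2 fold change of 0.86 (SE 0.20, adjusted p = 0.00311). It also rose in MTCH2 F/F cells, to 26.9, 28.7 and 19.7 CPM in EpiLCs, against 7.29, 9.07 and 8.52 CPM in ESCs, with a log2 fold change of 1.598 (SE 0.19, adjusted p = 2.92e-06). Timm21 was thus the member at 5 CPM or more with the largest priming response in each genotype.

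Other shared increases were seen for Hspa9, Mtx3 and the little expressed Tomm20l. Hspa9 rose with log2 fold changes of 0.21 (adjusted p = 0.0252) for MTCH2-/- cells and 0.36 (adjusted p = 2.59e-04) for MTCH2 F/F cells, and the call in MTCH2-/- cells was lost without MTCH2-/- ESC library 1 or MTCH2-/- EpiLC library 2 or 3, at adjusted p values of 0.0678 to 0.113, and when only the compared groups were fitted (0.0658). Mtx3, a metaxin, was measured at 31.2, 28.2 and 33.3 CPM in MTCH2-/- EpiLCs, against 29.3, 22.1 and 25.8 CPM in MTCH2-/- ESCs. The MTCH2 F/F libraries had 34.1, 33.2 and 33.7 CPM in EpiLCs, against 29.6, 25.3 and 26.2 CPM in ESCs. Its libraries overlapped in MTCH2-/- cells and were apart in MTCH2 F/F cells, with changes of 0.26 (adjusted p = 0.0474) for MTCH2-/- cells and 0.32 (adjusted p = 0.012) for MTCH2 F/F cells. The MTCH2-/- call for Mtx3 was lost without MTCH2-/- ESC library 2 or 3 or MTCH2-/- EpiLC library 1 or 3 (0.0871 to 0.218), in a fit of only the compared groups (0.0868) and with 10 CPM required in 3 libraries (0.0524), and the MTCH2 F/F call without MTCH2 F/F ESC library 2 (0.0513). DESeq2 gave 0.104 and 0.0889 for Tomm20l in MTCH2-/- and MTCH2 F/F cells.

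The genes that fell with priming were few. Timm22 was measured at 23.4, 25.1 and 22.7 CPM in MTCH2-/- EpiLCs, against 28.8, 31.5 and 29.1 CPM in MTCH2-/- ESCs. MTCH2 F/F libraries had 25.9, 24.4 and 23.9 CPM in EpiLCs, against 33.7, 32.7 and 32.4 CPM in ESCs. The media were apart in both genotypes, and Timm22 fell with log2 differences of −0.33 (SE 0.08, adjusted p = 0.00223) for MTCH2-/- cells and −0.41 (SE 0.08, adjusted p = 1.61e-04) for MTCH2 F/F cells. Timm8b had 24.6, 27.4 and 26.5 CPM in MTCH2-/- EpiLCs, against 31.04, 34.6 and 35.2 CPM in MTCH2-/- ESCs, and 32.9, 32.00 and 34.8 CPM in MTCH2 F/F EpiLCs, against 39.4, 39.5 and 40.3 CPM in MTCH2 F/F ESCs. It fell in both, with log2 fold changes of −0.36 (adjusted p = 0.00111) for MTCH2-/- cells and −0.26 (adjusted p = 0.00629) for MTCH2 F/F cells. Htra2 fell with log2 fold changes of −0.37 (adjusted p = 0.00254) for MTCH2-/- cells and −0.23 (adjusted p = 0.0268) for MTCH2 F/F cells, a call in MTCH2 F/F cells that was lost without MTCH2 F/F ESC library 1 or 2 or MTCH2 F/F EpiLC library 2 or 3 (0.0867 to 0.0934) and without a filter on low counts (0.064). Timm8a2 also fell in MTCH2 F/F cells, with a log2 fold change of −1.51 (adjusted p = 3.29e-05), and did not pass in MTCH2-/- cells (0.35, adjusted p = 0.2).

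With the replicate number as a block, some members near the threshold passed. In MTCH2-/- cells these were Lonp1 (0.17, adjusted p = 0.0111 with the block and 0.0659 without) and Spg7 (0.20, 0.0147 and 0.0743). In MTCH2 F/F cells they were Mtx2 (0.21, 0.0337 and 0.0515), Tomm22 (0.20, 0.0314 and 0.0715) and Timm23 (−0.34, 0.0455 and 0.0622). Tomm20 rose with priming in MTCH2 F/F cells, with a log2 fold change of 0.27 (adjusted p = 0.0249), a call lost without MTCH2 F/F ESC library 1 or 3 or MTCH2 F/F EpiLC library 2 (0.0557 to 0.105), and its difference in MTCH2-/- cells was 0.18 (adjusted p = 0.17).

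**Figure D3:**
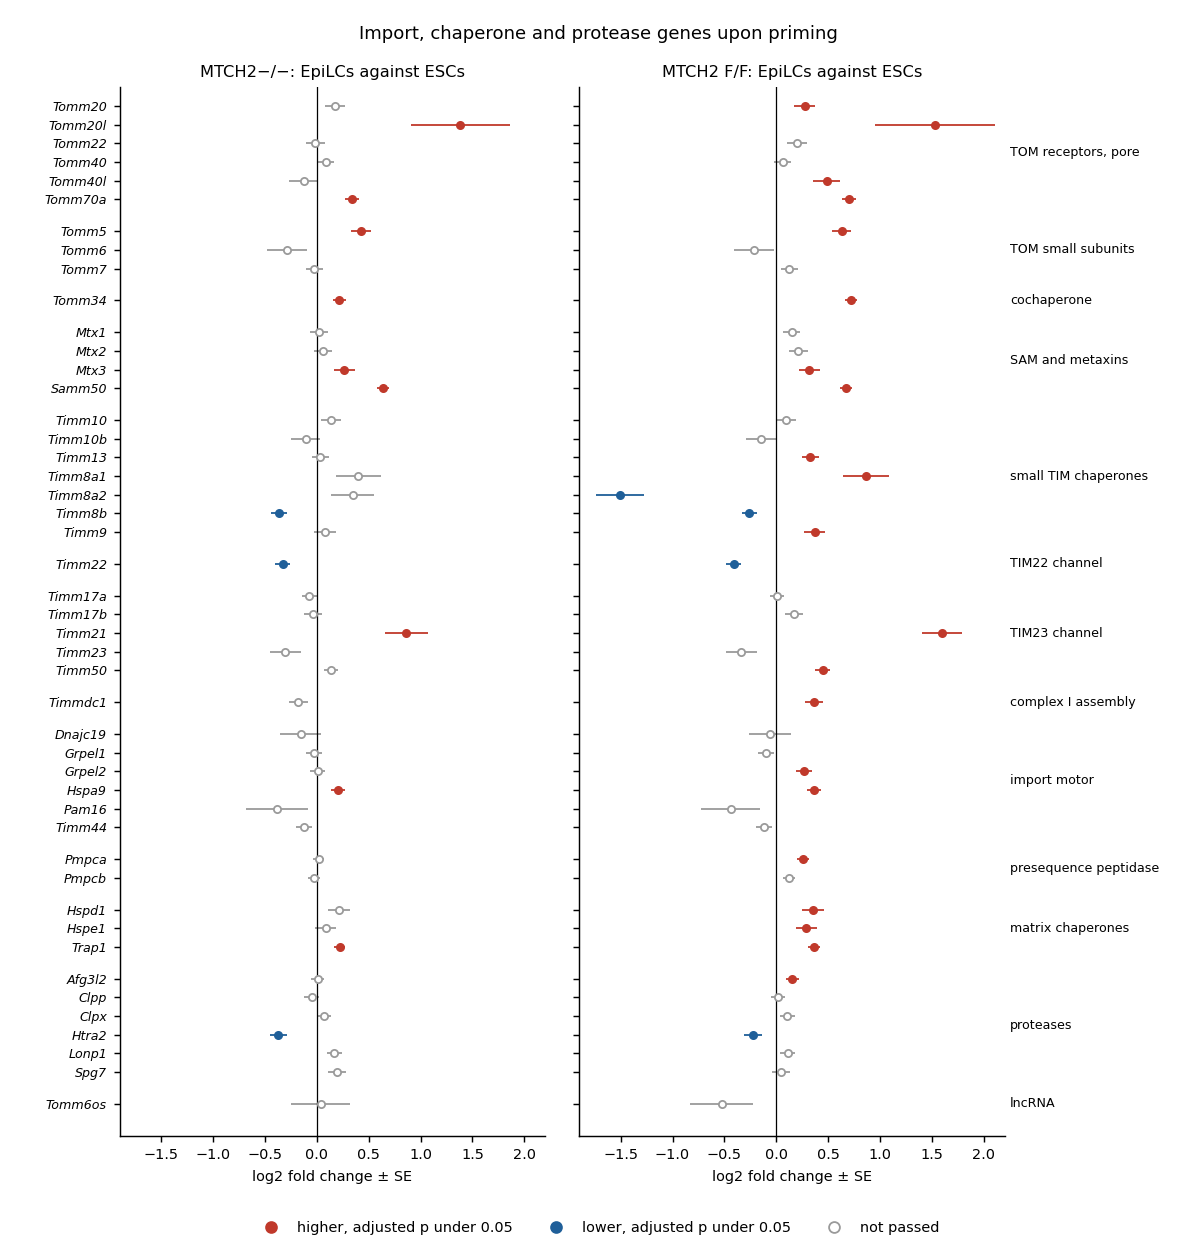
Each point is the log2 fold change of 1 member between EpiLCs and ESCs with its SE, in MTCH2-/- cells (left) and MTCH2 F/F cells (right), grouped by role. Red points are higher, blue points lower and open points did not pass an adjusted p of 0.05; 9 members are red on the left and 21 on the right.

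Whether priming acted differently by genotype was tested by an interaction term, the log2 response in MTCH2-/- cells minus that in MTCH2 F/F cells. It was positive for 1 member and negative for 6 at an adjusted p under 0.05, beside 17.8% and 17.2% of all genes tested, so the shares of members were below those of all genes, and 1 member passed with a 2-fold minimum, beside 14.4%. The number of negative members was 3 without MTCH2 F/F ESC library 1 and without MTCH2 F/F EpiLC library 2. The median interaction over members was −0.14, against −0.01 over all genes. Some members differed by genotype past the test in 1 medium only. Among them the interaction passed in the main fit for Timm50, Tomm70a, Timmdc1 and Timm8a2. It did not pass for Afg3l2, Clpp, Grpel2, Hspe1, Pmpcb, Timm17a, Timm21 and Timm9, so a difference between media was not shown for these.

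Timmdc1 rose upon priming in MTCH2 F/F cells (0.36, adjusted p = 0.002) and did not pass in MTCH2-/- cells (−0.18, adjusted p = 0.122). It was measured at 23.04, 22.3 and 19.7 CPM in MTCH2-/- EpiLCs, against 25.6, 24.8 and 23.2 CPM in MTCH2-/- ESCs. In MTCH2 F/F cells it was measured at 27.3, 28.6 and 30.7 CPM in EpiLCs, against 21.2, 21.8 and 24.3 CPM in ESCs. The interaction was −0.54 (SE 0.13, adjusted p = 0.00339). Tomm34 rose in both genotypes but less in MTCH2-/- cells, to 68.1, 73.5 and 66.3 CPM in MTCH2-/- EpiLCs, against 59.8, 62.3 and 56.8 CPM in MTCH2-/- ESCs, and to 109, 115 and 117 CPM in MTCH2 F/F EpiLCs, against 69.9, 70.1 and 67.5 CPM in MTCH2 F/F ESCs. Its responses were 0.22 (adjusted p = 0.0106) for MTCH2-/- cells and 0.72 (adjusted p = 3.87e-08) for MTCH2 F/F cells, with an interaction of −0.50 (SE 0.09, adjusted p = 3.47e-04), and the response in MTCH2-/- cells did not pass without MTCH2-/- ESC library 3 or MTCH2-/- EpiLC library 2 (0.0502 and 0.0534). Tomm70a likewise rose to 294, 337 and 333 CPM in MTCH2-/- EpiLCs, against 231, 262 and 270.5 CPM in MTCH2-/- ESCs, and to 431, 449 and 445 CPM in MTCH2 F/F EpiLCs, against 281, 269.9 and 265 CPM in MTCH2 F/F ESCs. The interaction for Tomm70a was −0.36 (SE 0.10, adjusted p = 0.00866).

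For the other negative members the interaction was closer to the threshold. Timm50 was measured at 67.5, 82.7 and 72.3 CPM in MTCH2-/- EpiLCs, against 65.8, 70.3 and 66.6 CPM in MTCH2-/- ESCs, and at 106, 103 and 99.6 CPM in MTCH2 F/F EpiLCs, against 76.2, 74.6 and 75.8 CPM in MTCH2 F/F ESCs. Its interaction was −0.31 (SE 0.10, adjusted p = 0.0224). Pmpca rose in MTCH2 F/F cells (0.26, adjusted p = 6.44e-04) and not past the test in MTCH2-/- cells (0.02, adjusted p = 0.831), with an interaction of −0.24 (SE 0.08, adjusted p = 0.0244). The interaction of Tomm40l was −0.61 (SE 0.19, adjusted p = 0.0206). These calls were lost in 8 of 12 fits that left out 1 library for Timm50 (adjusted p 0.0528 to 0.0744), in 9 of 12 for Pmpca (0.0549 to 0.0858) and in 3 of 12 for Tomm40l (0.0538 to 0.0685). The libraries whose loss ended the call for Tomm40l were MTCH2-/- ESC library 3, MTCH2 F/F ESC library 1 and MTCH2 F/F EpiLC library 2. For Timm50 they were all but MTCH2-/- ESC libraries 1 and 3, MTCH2-/- EpiLC library 2 and MTCH2 F/F EpiLC library 3, and for Pmpca all but MTCH2-/- ESC library 1 and MTCH2-/- EpiLC libraries 2 and 3. Without a filter on low counts, Pmpca had 0.0797.

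Timm8a2 was the member with a positive interaction, 1.85 (SE 0.31, adjusted p = 2.95e-04), at 0.630 to 2.43 CPM over the 12 libraries. With the replicate block, 3 further members passed, namely Timm21 (−0.74, adjusted p = 0.0461 with the block and 0.0536 without), Timm13 (−0.29, 0.0157 and 0.0528) and Grpel2 (−0.26, 0.0439 and 0.0698). The priming response of Timm13 was 0.03 (adjusted p = 0.76) in MTCH2-/- cells, against 0.33 (adjusted p = 0.00171) in MTCH2 F/F cells.

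**Figure D4:**
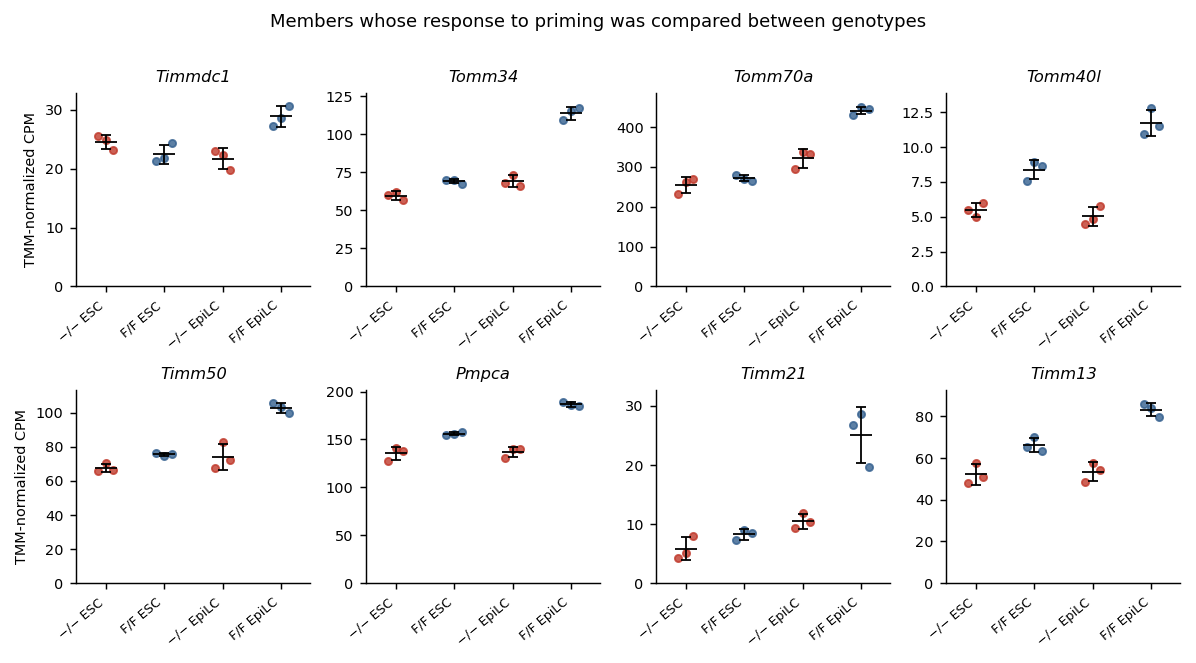
TMM-normalized CPM of the 6 members with a negative interaction and of Timm21 and Timm13, in the 4 groups. Points are libraries, bars the mean and SD of 3 libraries, red MTCH2-/- and blue MTCH2 F/F; Tomm34 stands at 66.3 to 73.5 CPM in MTCH2-/- EpiLCs, against 109 to 117 CPM in MTCH2 F/F EpiLCs, while the ESC groups lie closer together.

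Per kilobase of exon, Hspa9 was the most abundant member (272.8 CPM per kb over the 12 libraries), followed by Hspd1 (121) and Trap1 (96.3), and Tomm6os was the least (0.40). Summed over all 46 members, levels were 3916 to 4326 CPM in MTCH2-/- ESCs, against 4119 to 4219 CPM in MTCH2 F/F ESCs, so the ESC sums overlapped. In EpiLCs they were 4292 to 4948 CPM in MTCH2-/- cells, against 5069 to 5208 CPM in MTCH2 F/F cells, without overlap. Hspa9 made up a large part of each sum, and it was higher in MTCH2-/- cells of both media.

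Several members have processed pseudogenes in the annotation that hold counts of their own. Hspd1-ps3 held 68513 counts over the 12 libraries, against 76843 for Hspd1, and its log2 fold changes were −0.34 in ESCs and −0.48 in EpiLCs, next to −0.33 in ESCs and −0.47 in EpiLCs for Hspd1. Hspa9-ps1 held 43466 counts, against 286343 for Hspa9, and changed by 0.41 in ESCs and 0.19 in EpiLCs. Dnajc19-ps held 4244 counts, more than the 1430 of Dnajc19, and was measured at 12.5, 14.9 and 14.4 CPM in MTCH2-/- EpiLCs, against 20.96, 20.1 and 21.3 CPM in MTCH2 F/F EpiLCs. It was lower in MTCH2-/- EpiLCs, with a log2 fold change of −0.58 (adjusted p = 1.15e-04), where Dnajc19 itself showed no difference (−0.00, adjusted p = 0.99). With copy counts added, Dnajc19 fell in EpiLCs, with a log2 fold change of −0.43 (adjusted p = 5.09e-04) and Timm8a1, with its copy Gm9797 (1312 counts, against 903), with a log2 fold change of −0.43 (adjusted p = 0.0235), which made 28 members lower in EpiLCs. Whether the copies' reads came from the parent genes was not tested.

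**Figure D5:**
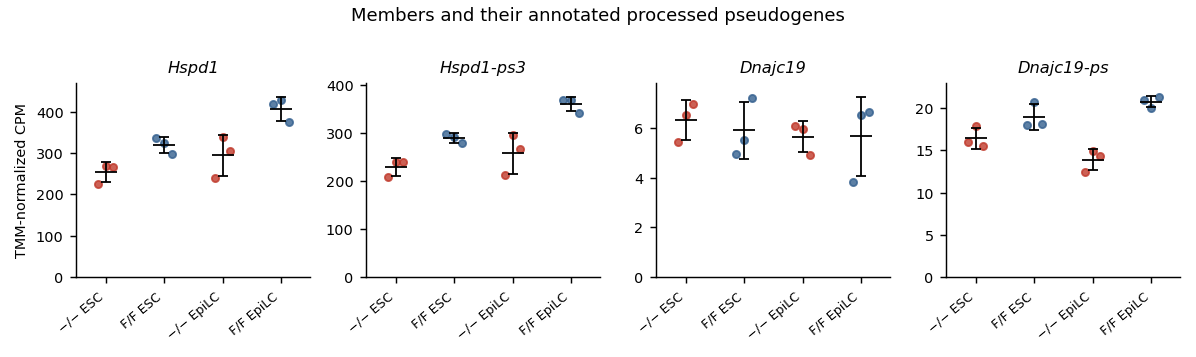
TMM-normalized CPM of Hspd1 and Dnajc19 beside their processed pseudogenes in the 4 groups. Points are libraries, bars the mean and SD of 3 libraries, red MTCH2-/- and blue MTCH2 F/F; Hspd1-ps3 follows the pattern of Hspd1, and Dnajc19-ps is lower in MTCH2-/- EpiLCs (12.5 to 14.9, against 20.1 to 21.3 CPM in MTCH2 F/F EpiLCs) while Dnajc19 is not.

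Neighbouring pathways were counted from lists chosen with earlier results known, and their counts stand beside 23.3% higher and 20.4% lower of all genes in ESCs and 32.3% and 30.2% in EpiLCs. The 2 genes of the intermembrane space disulfide relay did not pass in either genotype comparison (0.00 to 0.05 in ESCs and −0.12 to −0.08 in EpiLCs, log2). Of 11 other import and insertion factors, Mtch2 included, 2 rose and 4 fell in MTCH2-/- ESCs, while 2 rose and 6 fell in MTCH2-/- EpiLCs. Among them Romo1, an inner membrane protein of the TIM23 machinery, fell with log2 fold changes of −0.39 (adjusted p = 0.0228) in ESCs and −0.76 (adjusted p = 8.61e-05) in EpiLCs. Atad1, which extracts misplaced proteins from the outer membrane, was lower in MTCH2-/- EpiLCs, with a log2 fold change of −0.91 (adjusted p = 3.35e-08). In MTCH2-/- ESCs Atad1 was higher (0.18, adjusted p = 0.049) with overlapping libraries, and its interaction was −1.09 (adjusted p = 9.69e-07). Of 12 other mitochondrial proteases and scaffolds, 4 of which (Mipep, Immp1l, Immp2l and Xpnpep3) are also among those 11 factors, 1 rose and 6 fell in MTCH2-/- ESCs, while 2 rose and 6 fell in MTCH2-/- EpiLCs. Mipep, which trims presequences further, fell with log2 fold changes of −0.30 (adjusted p = 0.0161) in ESCs and −0.75 (adjusted p = 4.34e-06) in EpiLCs, and Pitrm1, which degrades cleaved presequences, with log2 fold changes of −0.25 (adjusted p = 0.019) in ESCs and −0.54 (adjusted p = 2.42e-05) in EpiLCs. Lactb went the other way and rose, with log2 fold changes of 0.98 (adjusted p = 1.03e-05) in ESCs and 0.36 (adjusted p = 0.0139) in EpiLCs. Of 8 measured MICOS genes, which shape cristae, 2 fell in ESCs, while 2 rose and 4 fell in EpiLCs, with Chchd6 at −1.06 (adjusted p = 5.74e-06).

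Chaperones outside mitochondria were counted in the same way. Of 8 subunits of the cytosolic chaperonin CCT, 4 were lower in MTCH2-/- ESCs and all 8 in MTCH2-/- EpiLCs. Cct3 fell with log2 fold changes of −0.38 (adjusted p = 0.00214) in ESCs and −0.61 (adjusted p = 1.56e-05) in EpiLCs. Upon priming their log2 fold changes were −0.06 to 0.15 in MTCH2-/- cells without passing the test. In MTCH2 F/F cells 7 rose, beside 31.9% of all genes tested. The interaction was negative past the test for 3, beside 17.2%. Of 17 cytosolic chaperones for precursors, 3 rose and 7 fell in ESCs, while 2 rose and 7 fell in EpiLCs, with Stip1, which links Hsp70 to Hsp90, at −0.34 (adjusted p = 0.00986) in ESCs and −0.56 (adjusted p = 1.23e-04) in EpiLCs. Of 12 ER chaperones, 2 rose and 6 fell in ESCs, while 2 rose and 7 fell in EpiLCs. Hsp90b1 fell, at −0.63 (adjusted p = 6.51e-06) in ESCs and −0.74 (adjusted p = 3.86e-07) in EpiLCs. Dnajc3 rose, at 0.73 (adjusted p = 2.87e-06) in ESCs and 0.67 (adjusted p = 1.88e-06) in EpiLCs.

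Of 15 transcription factors tied to mitochondrial stress or biogenesis, 4 rose and 4 fell in MTCH2-/- ESCs, while 4 rose and 5 fell in MTCH2-/- EpiLCs, shares near those of all genes (23.3% and 20.4% in ESCs, 32.3% and 30.2% in EpiLCs). Atf5, a stress factor tied to unfolded proteins in mitochondria, was measured at 141, 166 and 159 CPM in MTCH2-/- ESCs, against 42.4, 41.9 and 46.4 CPM in MTCH2 F/F ESCs. Its EpiLC levels were 219.5, 249 and 233 CPM in MTCH2-/- EpiLCs, against 63.8, 63.7 and 69.8 CPM in MTCH2 F/F EpiLCs. It rose without overlap, with log2 differences of 1.83 (SE 0.08, adjusted p = 1.34e-10) in ESCs and 1.83 (SE 0.07, adjusted p = 5.31e-11) in EpiLCs. Ddit3 (CHOP) rose with log2 fold changes of 1.56 (adjusted p = 9.79e-08) in ESCs and 0.84 (adjusted p = 1.03e-05) in EpiLCs, and Cebpb, with log2 fold changes of 2.55 (adjusted p = 5.25e-08) in ESCs and 1.04 (adjusted p = 2.11e-05) in EpiLCs. Atf4 did not pass in ESCs (0.09, adjusted p = 0.309) or in EpiLCs (−0.04, adjusted p = 0.604), and neither did Hsf1. Ppargc1a, a coactivator tied to biogenesis, also rose, by 6.71 (adjusted p = 2.19e-04) in ESCs and 3.27 (adjusted p = 0.00249) in EpiLCs. Its level was low, with a mean of 1.02 CPM over the 12 libraries. The 4 factors lower in MTCH2-/- ESCs were Nrf1, Gabpa, Pprc1 and Tfam. Of these, only Tfam was lower in EpiLCs too (−0.15, adjusted p = 0.0346). Nrf1 (−0.10), Gabpa (0.06) and Pprc1 (−0.09) did not pass there. The 5 lower in EpiLCs were Tfam, Gabpb1, Esrra, Mycn and Ppargc1b.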

How the data were processed

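RNA was extracted from 12 samples of cultured cells, and poly-A libraries were read single-end on a HiSeq 2500. Per the labels, the tools were bcl2fastq 2.16.0.10, TopHat2 2.0.10 with GRCm38, HTSeq 0.6.1p1 and DESeq2 1.6.3. The authors deposited raw counts per gene symbol, which were used here. Another 12 columns hold normalized values, and a further table holds the authors' DESeq2 fold changes and adjusted p; neither was used. Strand use in counting was not given in the sources used here, and reads of overlapping genes cannot be told apart.

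The count test was edgeR 4.0.16 in R 4.3.3, with filterByExpr, TMM factors, 1 fit of the 4 groups without a block, and the robust quasi-likelihood test. Adjusted p values (Benjamini-Hochberg, every gene that passed the filter) under 0.05 were calls. SE was taken as log2 fold change over the root of F. The code was tested on simulated data with 200 changed genes. The methods call the 3 libraries of a group biological samples, without saying whether they are lines or cultures. The p-values of the main fit rest on the spread between libraries within groups, and leave out the pairing by number described below. The members, their roles and the lists were chosen with earlier results of these data known. Named members were Mtch2, Tomm20 and, per contrast and direction, up to 6 called members with the largest change at a mean of at least 5 CPM; of each list, up to 3 genes. Other members are named within their role group.

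Samples carry a number from 1 to 3 in the labels, which do not say what it marks. After removal of group means, libraries with the same number correlated across genes by 0.147 to 0.574 in 12 pairs, and those with another number by −0.412 to −0.01 in 24, so the numbers were taken, from these correlations, to pair the samples. Alternatives were DESeq2 1.42.0, other size factors, other filters, a block for the replicate number, fits of only the groups compared, and each library left out. Positions and exon overlaps come from GENCODE vM21, another annotation than that of the counts. Promoter motifs were chosen after the data were seen, and longer ones searched first are not reported here.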

Additional observations from a re-analysis of the deposited data

Results flagged for a closer look

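For 7 members the response to priming differed between the genotypes by the interaction test of edgeR, as the log2 response in MTCH2-/- cells minus that in MTCH2 F/F cells. It was −0.61 for Tomm40l, −0.54 for Timmdc1, −0.50 for Tomm34, −0.36 for Tomm70a, −0.31 for Timm50 and −0.24 for Pmpca. It was 1.85 for Timm8a2, which was at 0.630 to 2.43 CPM. Beside these, 17.8% of all genes tested had a positive and 17.2% a negative interaction.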

How the results depend on the processing

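No result changed direction while called. With the replicate block, which pairs same-numbered libraries, the counts were 5 higher and 20 lower for genotype in ESCs, 5 and 26 in EpiLCs, 11 and 3 upon priming of MTCH2-/- cells, 23 and 5 upon priming of MTCH2 F/F cells, and 1 and 9 by interaction; call changes under the block stand beside the results, and no other named call changed. With a 2-fold minimum the counts were 0 higher and 0 lower in ESCs, 1 and 2 in EpiLCs, 1 and 0 upon priming of MTCH2-/- cells and 2 and 1 upon priming of MTCH2 F/F cells, and 0 members had a negative interaction. With 10 CPM required in 3 libraries, Timm8a2 was not tested and 0 members had a positive interaction. Leaving out members under 5 CPM or with shared sequence, an alternative chosen after seeing the data, left 2 members lower upon priming of MTCH2 F/F cells and 0 with a positive interaction. With each library left out in turn, 3 to 5 members were higher in ESCs, 3 to 5 higher in EpiLCs, and 3 to 9 had a negative interaction. Scaled by library totals alone, the median log2 fold change of all genes was 0.0634 in ESCs and 0.0873 in EpiLCs. Members under 5 CPM, such as Pam16 and Tomm20l, are limited by depth.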
